A study of Homo sapiens with 6 samples.

Results

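The B cell receptor and surface signaling genes described here are 42 genes named by symbol: 14 for proteins of the B cell surface and 28 for the kinases, adaptors, lipid enzymes, exchange factors and transcription factors that act beneath the receptor. Of the 42 symbols, 41 were among the 21850 genes listed in the counts, and 35 passed the filter on low counts and were tested, among 13971 genes in all. FCER2, the low-affinity IgE receptor, was not listed. RNA was taken from MM.1S, a human myeloma line, at day 3 after infection with a lentivirus. The shNT group (3 libraries, genotype WT) received a scramble hairpin and the shPRKCN group (3 libraries, genotype PRKCN knockdown) a hairpin against PRKCN, a protein kinase D gene listed as PRKD3, so that the cells of every library had been exposed to a hairpin vector. The libraries come from 1 line, the labels do not say which PRKCN hairpin was used, and nothing says that libraries of a group were separate cultures, so the p-values measure the spread between these libraries, which may be technical. Since RNA was measured in bulk, fewer cells with a transcript and less transcript per cell cannot be told apart.

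In a B cell, membrane immunoglobulin signals through the CD79A and CD79B chains, whose tails are phosphorylated by LYN and related kinases and then bind SYK. SYK and BTK, held together by the scaffold BLNK, activate phospholipase C gamma, which splits a membrane lipid into diacylglycerol and a messenger that releases calcium. Diacylglycerol recruits RASGRP exchange factors, protein kinase C and the protein kinase D family to which PRKCN belongs. Protein kinase C feeds the BCL10 and MALT1 complex, and calcium acts through calcineurin on the NFAT factors. Plasma cells, the normal counterpart of myeloma, secrete immunoglobulin and shut down much of this surface apparatus, a step in which the transcription factor IRF4 takes part.

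The sequences below are the stretches before the start site of members that carry an ETS-IRF composite element, a motif bound by IRF4 together with an ETS factor, and they are shown because IRF4 RNA itself was lower in the shPRKCN libraries, with values given further on. RefSeq promoters on GRCh38.p14 were found for 35 of the 42 members, with 64 windows in all. The other 7, CD79B among them, had no window and were not searched. In the 250 bases before the start, GGAANNGAAA on either strand occurred for 6 members, PIK3CD, FCGR2B, RASGRP3, INPP5D, DAPP1 and BANK1, or 17.1% of the 35. By window the share was 9.38% of the 64 against 2.41% of all 35116 windows, and 2.99% of all genes had it in at least 1 window. GAAANNGAAA, the interferon-stimulated response element, which can share letters with the first motif, was present for 3 members (PIK3CD, FCGR2B and FCER2). That is 8.57% of the 35 against 3.71% of all genes, and 4.69% of the 64 windows against 3.02% of all windows. The octamer ATGCAAAT was present for CD53 alone, 2.86% of the 35 against 2.03% of all genes. By window its share was 1.56% of the 64 against 1.63% of all windows. A match describes letters, not a bound site. Each line gives the 150 bases before the start, 5′ to 3′ in the sense of the gene, all on the plus strand, with the ETS-IRF match in capitals.
INPP5D: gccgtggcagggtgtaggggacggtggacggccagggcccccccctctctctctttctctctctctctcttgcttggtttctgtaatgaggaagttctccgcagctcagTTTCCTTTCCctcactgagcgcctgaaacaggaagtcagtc
DAPP1: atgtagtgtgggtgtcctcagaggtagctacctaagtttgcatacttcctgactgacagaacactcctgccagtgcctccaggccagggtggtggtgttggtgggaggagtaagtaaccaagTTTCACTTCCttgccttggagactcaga
RASGRP3: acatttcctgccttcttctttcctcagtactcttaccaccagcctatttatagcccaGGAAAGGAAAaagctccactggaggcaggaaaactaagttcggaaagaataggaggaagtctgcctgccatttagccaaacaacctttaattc
BANK1: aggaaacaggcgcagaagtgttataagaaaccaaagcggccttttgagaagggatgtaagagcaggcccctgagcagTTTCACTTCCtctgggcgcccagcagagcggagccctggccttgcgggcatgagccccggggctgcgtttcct
They lie at chr2:233060192-233060341 (INPP5D), chr4:99816677-99816826 (DAPP1), chr2:33436198-33436347 (RASGRP3) and chr4:101790580-101790729 (BANK1). In RASGRP3 the match reads in the sense of the gene, and in the other members printed it reads on the opposite strand, 41 to 32 bases before the start in INPP5D and 28 to 19 bases before it in DAPP1. RASGRP3 has 4 such windows and BANK1 has 2, and the match is in 1 of them in each gene. The members with the motif moved in different directions, as described next: INPP5D and PIK3CD were higher and DAPP1 and RASGRP3 lower after PRKCN knockdown.

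The targeted gene fell, as its counts show: PRKD3 was at 1262 ± 41.7 CPM (SD, n = 3) in shNT and 517 ± 23.4 CPM (SD, n = 3) in shPRKCN libraries. IRF4 fell by 1.85 on the log2 scale (standard error 0.0348, edgeR adjusted p = 5.7e-52). Library totals lay between 35625564 and 37730003 counts. Levels are given as CPM, counts scaled to library size, and 3 counts were taken as the floor. A member was said to rise or fall at a Benjamini-Hochberg adjusted p under 0.05 in edgeR's quasi-likelihood test, and was called when the log2 fold change also passed 0.58 in either direction. The libraries carried plasma cell RNA: all 9 plasma cell markers were listed, with a summed level of 9207 to 9327 CPM in shNT and 7920 to 8044 CPM in shPRKCN libraries. TNFRSF17, XBP1, SLAMF7 and IRF4 were the 4 called lower. PRDM1 and MZB1 also fell, under the fold limit, whereas SDC1 rose by 0.18 on the log2 scale (edgeR adjusted p = 2.1e-06). CD38 and JCHAIN did not pass the test, and JCHAIN alone was at 5300 to 5517 CPM. Of 12 T cell markers 9 were listed, and their sum was 40.0 to 42.1 CPM in shNT against 62.7 to 67.3 CPM in shPRKCN libraries. CD3D and CD3G had 0 or 1 count, whereas LAT had 916 to 1235 counts and ZAP70 had 56 to 99. CD3E was called higher, and LAT rose by 0.29 on the log2 scale (edgeR adjusted p = 3.8e-05). Of 10 myeloid markers 7 were listed (16.2 to 19.4 against 12.1 to 14.8 CPM), with LYZ at 0 to 2 and CD14 at 1 to 9 counts. Of these, S100A9 was called higher (24, 8 and 9 counts in shNT against 49, 56 and 53 after knockdown) and CD68 lower (log2 fold change −0.59). Of 10 stromal, epithelial and endothelial markers 8 were listed (20.9 to 25.5 against 9.61 to 10.9 CPM), with DCN at 0 or 1 count and PECAM1 called lower. Most of this sum was PECAM1 alone, at 19.7 to 23.3 CPM in shNT and 8.82 to 9.06 CPM in shPRKCN libraries. The part of these markers in the results was not tested.

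Of the 35 tested members, 3 were called higher (CR2, CD79B and INPP5D) and 2 were called lower (DAPP1 and CD72). Among all genes tested 6.15% were called higher and 10.6% lower, against 8.57% and 5.71% of the members. Without the fold limit 15 members rose and 9 fell. These are 42.9% and 25.7% of the members tested, where 26.5% and 27.8% of all genes did so. The counts by role that follow are to be read against these shares of all genes. In 14 members all 3 shPRKCN libraries lay above all 3 shNT libraries and in 10 they lay below, as they did in 29% and 29.8% of all genes. The median log2 fold change of the tested members was 0.12 beside 0.0012 for all genes, and it was 0.063 without shPRKCN replicate 3. Most of the differences were therefore small, and the members did not move in 1 direction. The plot of log2 fold changes by role shows how members of the same step parted.

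**Figure D1:**
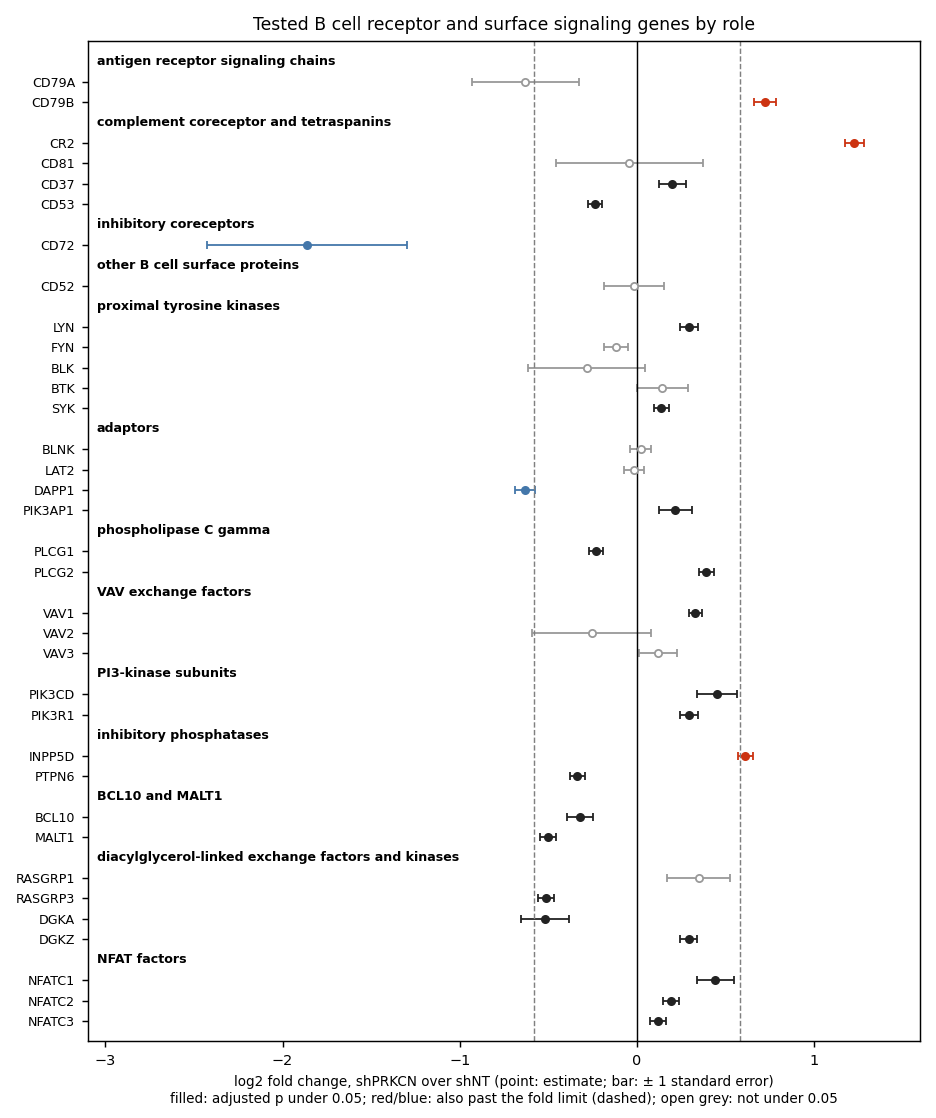
Log2 fold change of the 35 tested members, shPRKCN over shNT, with bars of 1 standard error and dashed lines at the fold limit of 0.58, grouped by role. CR2, CD79B and INPP5D lie to the right of the limit, CD72 and DAPP1 to the left, and CD79A lies past the limit with an adjusted p above 0.05.

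The members differed widely in level. On the FPKM scale, which is per length of transcript, 29 of the 41 listed members were at 1 or more in shNT cells, 12 at 10 or more and 2 at 50 or more. Of all listed genes 47.7%, 21.1% and 4.65% reached these limits. VAV1, an exchange factor for RAC proteins, was at 64.0 ± 1.85 FPKM (SD, n = 3) and CD53, a tetraspanin of leukocytes, at 63.7 ± 1.82 FPKM (SD, n = 3), so these highest levels did not differ beyond their spread. PTPN6 followed at 44.5 ± 2.01 FPKM and PLCG1 at 21.9 ± 0.50 FPKM (SD, n = 3). At the other end stood the classical B cell surface proteins. CD22, an inhibitory lectin, had 0 or 1 count in every library. MS4A1, which encodes CD20, had 0 to 8 counts, and FCGR2B, the inhibitory Fc receptor, had 0 to 9. PTPRC, the receptor phosphatase CD45, had 1 to 21 counts. CD24 had 1 count in 1 library and 0 in the others. FCGR2B and CD24 have near-identical copies elsewhere in the genome, so their counts are uncertain. None of these 5 was tested, and at this depth no difference between the groups could be detected in them. CD81, a tetraspanin of the coreceptor complex, had 15 to 33 counts per library.

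Of the signaling chains of the receptor, CD79B rose and CD79A did not pass the test. CD79B (chromosome 17, 63928740 to 63932331 on GRCh38.p14) was at 21.4, 20.6 and 23.1 CPM in the shNT libraries and at 37.8, 35.7 and 34.1 CPM in the shPRKCN libraries. Every shPRKCN library was thus above every shNT library, and the mean rose 1.65-fold (log2 fold change 0.72, standard error 0.0628, edgeR adjusted p = 3.2e-16). CD79A, its partner chain, had 44, 60 and 50 counts in shNT and 32, 28 and 42 counts in shPRKCN libraries. The groups did not overlap and the log2 fold change was −0.63 (standard error 0.302), but the adjusted p of 0.071 in edgeR missed the threshold. Other settings gave adjusted p-values of 0.0089 to 0.23, so whether CD79A differed could not be decided at its depth. Per length, CD79B exceeded CD79A by 11.1 to 15.2 times in shNT and by 27.1 to 41.8 times in shPRKCN libraries.

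Among the tested members the largest rise was in the coreceptor. CR2, the complement receptor CD21 that acts with CD81 and lowers the threshold of the receptor, lies on chromosome 1 from 207454328 to 207489892. It was at 26.5, 24.0 and 24.7 CPM in shNT and at 56.7, 61.1 and 58.1 CPM in shPRKCN libraries. Every shPRKCN library stood far above every shNT library, a 2.34-fold rise (log2 fold change 1.23, standard error 0.0552, edgeR adjusted p = 4.0e-30). Leaving out single libraries gave log2 fold changes of 1.20 to 1.27. CD81 had a log2 fold change of −0.04 with a standard error of 0.414 (edgeR adjusted p = 0.94), an interval too wide to tell a change from none. Of the other tetraspanins, CD53 fell from 161, 162 and 154 CPM to 134, 138 and 133 CPM (log2 fold change −0.24, standard error 0.038, edgeR adjusted p = 2.0e-07). CD37 rose by 0.20 on the log2 scale with overlapping groups, 17.6 to 19.1 against 18.8 to 22.7 CPM (edgeR adjusted p = 0.020), and its adjusted p was above 0.05 under 6 alternatives, up to 0.14 without shPRKCN replicate 1. CD52, a small surface glycoprotein of lymphocytes, was at 3.42 to 3.51 CPM in shNT and 2.97 to 4.06 CPM in shPRKCN libraries (log2 fold change −0.02, standard error 0.171). CD52 overlaps UBXN11 on the opposite strand, which had a mean of 620 counts against 127 for CD52 and a log2 fold change of −0.13.

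The inhibitory coreceptor CD72 (chromosome 9, 35609982 to 35646857) was called lower on few reads. It had 20, 19 and 15 counts in shNT and 9, 1 and 5 counts in shPRKCN libraries. The groups did not overlap (log2 fold change −1.86, standard error 0.566, edgeR adjusted p = 0.0040), but the size rested on single libraries. Without shPRKCN replicate 2 the log2 fold change of CD72 was −1.39 with an edgeR adjusted p of 0.053, and without shPRKCN replicate 1 it was −2.58. CD72 overlaps TESK1, which lies on the opposite strand and had a mean of 601 counts. TESK1 also fell, by 0.36 on the log2 scale (edgeR adjusted p = 0.00013), and its part in the CD72 result was not tested. The strandedness of the counting is not given in the sources used here, so reads of the overlap cannot be assigned with certainty.

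Of the proximal tyrosine kinases 2 of 5 rose (40%, against 26.5% of all genes) and none was called, where 6.15% of all genes were called higher. LYN, which phosphorylates CD79A and CD79B and also the inhibitory coreceptors, was at 42.2, 41.3 and 39.3 CPM in shNT and 47.2, 51.6 and 51.7 CPM in shPRKCN libraries. The groups were apart (log2 fold change 0.29, standard error 0.0526, edgeR adjusted p = 2.3e-06). SYK rose by 0.14 (standard error 0.0439, edgeR adjusted p = 0.0061, and 0.054 without shPRKCN replicate 3). BTK (log2 fold change 0.14, standard error 0.145), FYN (−0.12, standard error 0.067) and BLK (−0.28, standard error 0.331) did not pass the test, and BLK had only 28 to 58 counts per library. The ratio of SYK to BTK per length was 8.87 to 10.6 in shNT and 9.04 to 9.80 in shPRKCN libraries.

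Among the tested adaptors DAPP1 was the one called. DAPP1 (chromosome 4, 99816827 to 99872333), which binds the lipid product of PI3-kinase and is phosphorylated after receptor engagement, was at 42.5, 45.2 and 42.9 CPM in shNT and at 29.5, 27.9 and 26.9 CPM in shPRKCN libraries. All shPRKCN libraries were lower, to 0.645 of the shNT mean (log2 fold change −0.63, standard error 0.0567, edgeR adjusted p = 1.4e-15). On the log2(FPKM + 1) scale the difference was −0.56, inside the fold limit. BLNK (log2 fold change 0.02, standard error 0.0589) and LAT2 (−0.01, standard error 0.0557), scaffolds that bind GRB2, had overlapping groups at 30.7 to 34.3 and 34.7 to 36.4 CPM. BLNK overlaps ZNF518A on the opposite strand, which had a mean of 2329 counts against 1181 for BLNK and a log2 fold change of −0.02. PIK3AP1, an adaptor for PI3-kinase, rose by 0.22 (edgeR adjusted p = 0.041), but its adjusted p was above 0.05 under 9 alternatives, up to 0.23 without shPRKCN replicate 1. BANK1, a scaffold of mature B cells that binds LYN, had 0 counts in each shNT library and 4, 7 and 3 counts in the shPRKCN libraries. Set against a floor of 3 counts over the shNT group, the ratio was 4.54, a description that rests on few reads. BANK1 did not pass the filter on low counts and was not tested.

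The phospholipase C gamma genes moved in opposite directions, and both PI3-kinase subunits rose, where 26.5% of all genes rose. PLCG1, the phospholipase more widely used outside B cells, fell from 166, 158 and 160 CPM to 137, 143 and 133 CPM (log2 fold change −0.23, standard error 0.0383, edgeR adjusted p = 4.0e-07). PLCG2, the B cell form, rose from 69.7, 68.5 and 67.8 CPM to 90.9, 91.2 and 88.4 CPM (log2 fold change 0.39, standard error 0.0435, edgeR adjusted p = 4.1e-12). Neither pair of groups overlapped, and the ratio of PLCG2 to PLCG1 per length went from 0.354 to 0.365 in shNT to 0.537 to 0.561 in shPRKCN libraries. PIK3CD, the leukocyte catalytic subunit of PI3-kinase, rose by 0.45 (standard error 0.111, edgeR adjusted p = 0.00041) and its regulatory subunit PIK3R1 by 0.29 (standard error 0.049, edgeR adjusted p = 4.7e-07). PIK3CD overlaps CLSTN1 on the opposite strand, which had a mean of 8488 counts against 320 for PIK3CD. CLSTN1 also rose, by 0.18 on the log2 scale (edgeR adjusted p = 2.2e-05), and its part in the PIK3CD result was not tested.

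INPP5D, the phosphatase SHIP1 that removes a phosphate from the lipid product of PI3-kinase, lies on chromosome 2 from 233060342 to 233207903. It was at 97.3, 92.5 and 96.2 CPM in shNT and at 143, 149 and 145 CPM in shPRKCN libraries. The groups were far apart for their spread, a 1.53-fold rise (log2 fold change 0.61, standard error 0.0396, edgeR adjusted p = 4.9e-22), just past the fold limit, and leaving out single libraries gave 0.60 to 0.63. PTPN6, the tyrosine phosphatase SHP1 that docks on CD22 and CD72, fell from 112, 116 and 122 CPM to 92.6, 94.2 and 91.2 CPM (log2 fold change −0.34, standard error 0.0413, edgeR adjusted p = 1.4e-10). The 2 inhibitory phosphatases thus moved apart, with a ratio of INPP5D to PTPN6 per length of 0.418 to 0.462 in shNT and 0.824 to 0.847 in shPRKCN libraries. Of the VAV exchange factors, VAV1 rose from 186, 182 and 193 CPM to 224, 246 and 234 CPM (log2 fold change 0.33, standard error 0.0371, edgeR adjusted p = 6.6e-12), whereas VAV3 (0.12, standard error 0.109) and VAV2 (−0.26, standard error 0.337) did not pass the test.

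**Figure D2:**
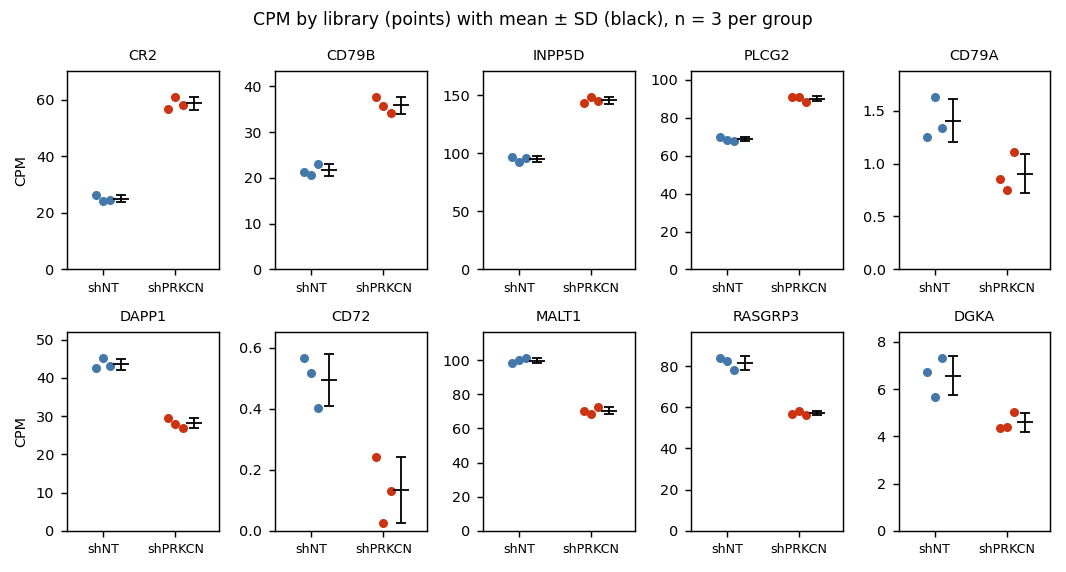
CPM of 10 members in every library (points, blue for shNT and red for shPRKCN) with the mean ± SD (black, n = 3), each panel starting at 0. CR2, CD79B, INPP5D and PLCG2 are higher in all shPRKCN libraries, and CD79A, DAPP1, CD72, MALT1, RASGRP3 and DGKA are lower in all of them, CD79A without passing the test.

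Both listed parts of the BCL10 and MALT1 step fell, under the fold limit, where 27.8% of all genes fell. MALT1, a paracaspase that activates NF-κB, went from 98.1, 99.8 and 101 CPM to 70.2, 68.4 and 72.7 CPM (log2 fold change −0.50, standard error 0.043, edgeR adjusted p = 2.0e-16). BCL10, the binding partner of MALT1, fell by 0.32 on the log2 scale (standard error 0.0722, edgeR adjusted p = 0.00011). Every shPRKCN library was below every shNT library for both genes.

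The genes that read or remove diacylglycerol were split. RASGRP3, an exchange factor that binds diacylglycerol and activates RAS and RAP, was at 84.0, 82.7 and 77.9 CPM in shNT and at 56.7, 58.4 and 56.4 CPM in shPRKCN libraries. It was lower in all shPRKCN libraries (log2 fold change −0.51, standard error 0.046, edgeR adjusted p = 1.4e-15). RASGRP1 was 21.7 ± 2.43 times less abundant than RASGRP3 per length in shNT and 12.1 ± 1.83 times less abundant in shPRKCN libraries (SD, n = 3), and its own log2 fold change was 0.35 (standard error 0.178, edgeR adjusted p = 0.092). Of the kinases that convert diacylglycerol to phosphatidic acid, DGKA fell from 6.74, 5.66 and 7.32 CPM to 4.34, 4.38 and 5.03 CPM (log2 fold change −0.52, standard error 0.136, edgeR adjusted p = 0.00084). DGKA passed the fold limit at −0.61 without shNT replicate 2 and at −0.58 without shPRKCN replicate 3. DGKZ, the more abundant one, rose from 46.7, 47.2 and 48.8 CPM to 57.1, 59.1 and 58.5 CPM (log2 fold change 0.29, standard error 0.049, edgeR adjusted p = 5.4e-07). The ratio of DGKZ to DGKA per length was 5.17 to 6.47 in shNT and 9.03 to 10.5 in shPRKCN libraries. DGKA overlaps PYM1 on the opposite strand, which had a mean of 834 counts against 206 for DGKA and a log2 fold change of 0.15.

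All 3 NFAT factors, which enter the nucleus once calcineurin dephosphorylates them, rose and none was called. Among all genes 26.5% rose and 6.15% were called higher. NFATC1 was at 8.32, 8.92 and 9.64 CPM in shNT and at 13.8, 12.7 and 9.98 CPM in shPRKCN libraries, with shPRKCN replicate 3 close to the shNT range (log2 fold change 0.44, standard error 0.105, edgeR adjusted p = 0.00026). Its adjusted p was 0.074 with limma on log2(FPKM + 1). NFATC2 rose by 0.19 (standard error 0.0465, edgeR adjusted p = 0.00030). NFATC3 rose by 0.12 (standard error 0.045, edgeR adjusted p = 0.021, and up to 0.10 with a library left out, without shPRKCN replicate 2).

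The pairs in the plot of ratios were picked after the values were seen, and the ratios are given as a description. For any 1 such value 3 libraries against 3 cannot give an exact 2-sided permutation p below 0.1.

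Of 108 further genes of the pathway, 102 were listed and 91 tested. Among these 8 were called higher and 6 lower, or 8.79% and 6.59% beside 6.15% and 10.6% of all genes. At any fold 33 rose and 25 fell, or 36.3% and 27.5% beside 26.5% and 27.8% of all genes, and the counts of the groups that follow are to be read against the latter shares. Their log2 fold changes had a median of 0.04. Among genes close to the receptor, 11 of 20 tested rose (55%, against 26.5% of all genes) and 6 fell (30%, against 27.8%). CSK, which holds LYN and its relatives in check by phosphorylating their tails, rose from 256, 256 and 258 CPM to 394, 415 and 395 CPM (log2 fold change 0.64, edgeR adjusted p = 2.4e-26). IFITM1, an interferon-induced partner of CD81, rose by 0.77 (edgeR adjusted p = 1.2e-09). GAB2, a docking protein for PI3-kinase, fell from 33.4, 32.3 and 31.7 CPM to 11.5, 12.6 and 11.7 CPM (log2 fold change −1.44, edgeR adjusted p = 4.3e-28), the largest fall among the 91 tested. CBL, a ubiquitin ligase for activated receptors, fell by 0.65 on the log2 scale (edgeR adjusted p = 4.0e-21).

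From RAS to ERK, 4 of 14 tested genes rose (28.6%, near the 26.5% of all genes) and 7 fell (50%, against 27.8%). RASA1, which switches RAS off, was at 110, 111 and 112 CPM in shNT and at 222, 214 and 230 CPM in shPRKCN libraries (log2 fold change 1.00, standard error 0.0378, edgeR adjusted p = 2.2e-34). NF1, another such protein, fell from 47.6 ± 1.38 CPM (SD, n = 3) to 27.2 ± 1.61 CPM (SD, n = 3; log2 fold change −0.81, edgeR adjusted p = 2.2e-20). Of 5 tested protein kinase C genes 2 rose and 1 fell, against 26.5% and 27.8% of all genes. PRKCB, the main form in B cell receptor signaling, fell by 0.88 on the log2 scale (edgeR adjusted p = 2.7e-09). PRKCD rose by 0.65 (edgeR adjusted p = 5.7e-16) and PRKCA by 0.43 (edgeR adjusted p = 6.2e-14). Of 20 tested calcium and calcineurin genes 7 rose (35%, against 26.5% of all genes) and 4 fell (20%, against 27.8%), with RCAN3, a calcineurin regulator, called higher at 0.65 (edgeR adjusted p = 3.2e-18). Of 12 other PI3-kinase and AKT genes 4 rose (33.3%) and 2 fell (16.7%). Of 7 other NFAT, RASGRP and diacylglycerol kinase genes 1 rose (14.3%) and 2 fell (28.6%), with DGKH called lower at −0.78 (edgeR adjusted p = 6.4e-09).

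For the immunoglobulin part of the receptor, 9 heavy chain and 5 light chain constant region symbols looked for were not listed. JCHAIN, which joins secreted IgA and IgM, was at 5358 ± 37.7 CPM (SD, n = 3) in shNT and 5412 ± 109 CPM (SD, n = 3) in shPRKCN libraries (log2 fold change 0.01, standard error 0.0303). IGLL5, which lies in the lambda light chain locus and shares sequence with its constant region, fell from 7309 ± 326 CPM (SD, n = 3) to 5056 ± 101 CPM (log2 fold change −0.53, edgeR adjusted p = 8.0e-24), and its count is uncertain for that reason. VPREB1, a surrogate light chain, had 34, 64 and 73 counts in shNT libraries against 41, 34 and 34 after knockdown. It was called lower at −0.68 although its groups overlapped, and its adjusted p of 0.045 in edgeR ran from 0.0086 to 0.25 over the alternatives.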

How the data were processed

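RNA was sequenced from 3 shNT and 3 shPRKCN MM.1S libraries, grouped by the treatment label. The authors deposited raw counts of 21850 genes per library and FPKM values, which follow from those counts, the library totals and 1 length per gene. The submitters' processing notes list FastQC, HISAT2 and StringTie and the build GRCh38.p14; the counting program, its version and its strandedness are not given in the sources used here. After TMM scaling, the 13971 genes kept by filterByExpr entered edgeR's quasi-likelihood test (version 4.0.16, under R 4.3.3), with Benjamini-Hochberg adjustment over all of them and a log2 fold limit of 0.58, the study's own. The standard error is the size of the log2 fold change divided by the square root of F. CPM uses TMM-scaled library sizes.

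Alternatives were DESeq2 1.42.0, other scalings, no filter or a minimum of 10 counts per library, a replicate block, single libraries omitted, no fold limit, and limma 3.58.1 on log2(FPKM + 1) or log2(FPKM + 0.1). The edgeR and DESeq2 fits, and limma on counts scaled to library size, were run on simulated data. The other steps were not. The members, lists, roles and rules were chosen with earlier results of these data known. All 42 members are named; of the other pathway genes, those called without overlap at a mean of at least 50 counts, at most 5 in each direction. Libraries of a group differed by more than sampling noise (chi-square per degree of freedom 3.38 to 4.80), so none was counted as a repeat. Positions, overlaps and promoters are from RefSeq tables on GRCh38.p14, with strands from GENCODE release 29. Some items of the pathway list are not reported here.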

Additional observations from a re-analysis of the deposited data

How the results depend on the processing

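CR2, CD79B and INPP5D were called higher under every alternative tried, which covers DESeq2, 3 other scalings, 2 other filters, the replicate block, each library left out and limma on 3 versions of the FPKM. Of the 24 members that rose or fell, 18 kept an adjusted p under 0.05 wherever they were fitted, and CD37, CD72, SYK, PIK3AP1, NFATC1 and NFATC3 lost it under at least 1 alternative. The log2(FPKM + 1) scale, which compresses low genes, lowered the numbers of called genes, over all genes to 315 higher and 648 lower, or 310 and 635 with a minimum of 1 FPKM in 3 libraries, for the members to 0 lower in both, and for the other pathway genes to 5 higher and 2 lower in both. Dropping the fold limit raised the numbers, a larger move, to 3700 higher and 3877 lower over all genes, 15 and 9 among the members and 33 and 25 among the other pathway genes. With libraries left out in turn, 1 to 4 members were called lower, the lowest without shPRKCN replicate 2 (CD72 lost) and the highest without shPRKCN replicate 3 (CD79A and DGKA added). With a minimum of 10 counts in every library CD72 was not tested and CD79A was called lower in its place. With no filter BANK1 was called higher, on 0 counts in each shNT library and 3 to 7 in the shPRKCN libraries. The members' median was 0.063 to 0.15 with libraries left out and 0.052 on log2(FPKM + 1).

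The signs that turned all belong to members that did not pass the test. CD81 ran from −0.51 to 0.15 with libraries left out, and was at 0.13, 0.0059, 0.15 and 0.14 without shNT replicates 1 and 3 and shPRKCN replicates 1 and 2. CD52 (−0.15 to 0.078 with libraries left out) was at 0.0029 with library totals only, 0.078 without shPRKCN replicate 1 and 0.030 without shPRKCN replicate 3. BLK (−0.48 to 0.059) was at 0.059 without shNT replicate 3, BLNK (−0.026 to 0.054) at −0.026 without shPRKCN replicate 1, and VAV2 (−0.59 to 0.089) at 0.089 without shNT replicate 3 and 0.063 without shPRKCN replicate 3. LAT2 (−0.033 to 0.0016) was at 0.0047 with library totals only, 0.0016 without shPRKCN replicate 1, 0.0046 with limma on log2(FPKM + 1) with or without the minimum and 0.0048 on log2(FPKM + 0.1).

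The replicate numbers did not pair the libraries, since deviations of same-numbered libraries correlated at −0.063, −0.030 and −0.028. With the replicate block 3 members were called higher and 2 lower, as without it, and VPREB1 was at −0.64 with an adjusted p of 0.065. Members under about 50 counts per library, CD72, CD79A, BLK, CD81 and VAV2 among them, are limited by depth.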
